A study of Homo sapiens with 4 samples.

Results

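Genes of the proteasome and its regulators were measured in HT-29 cells, 44 genes in all. They were chosen by their symbol, which begins with PSMA, PSMB, PSMC, PSMD, PSME, PSMF or PSMG, and by being listed in the authors' annotated table. PSMB8 and PSMB9 were left out. That table lists 6145 of the 19729 genes, exactly those whose mean over all libraries reached 8, so the members were selected on their level and not on a difference between groups. PSMC3IP had the lowest mean of the members, 11.8. Below the limit lay PSMB9, with a mean of 6.5, and PSMG4, listed at 3 in all libraries. PSMA8, an alpha subunit known from testis, and PSMB11, the catalytic subunit of the thymus proteasome, were listed at 0 in all libraries.

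The proteasome degrades proteins that carry ubiquitin chains. Its barrel, the 20S core, is built of alpha rings that gate the entry and beta rings that hold the proteolytic sites, and its 19S cap binds ubiquitin, removes it and unfolds the substrate with a ring of ATPases. Activators of the PSME family can take the place of the cap, and dedicated chaperones help to build core and cap. In the colon the proteasome is known for degrading β-catenin, the effector of Wnt signaling, once the APC destruction complex has marked it for ubiquitin ligation.

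HT-29 is a colorectal cancer line with truncated APC that the labels describe as MSS, APC-mutant and BRAF-V600E. The cells had been stably transduced with a lentivirus that encodes a doxycycline (DOX)-inducible shRNA, directed against APC (APC shRNA) or non-silencing (NonS), and were 3 to 5 passages past transduction. Both groups, controls included, received 500 ng/ml DOX for 72 h, so lentivirus and DOX were common to all 4 libraries. Each group held biological duplicates, I and II, and the comparison addressed how RNA levels differ after APC silencing. In what follows, paired values are those of replicate I and then replicate II.

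The unit of the deposited whole numbers is not stated. Duplicates varied less than independent read counts would: over low genes the variance was 0.474 (NonS, 4632 genes) and 0.345 (APC shRNA, 4531 genes) of that of a Poisson count. The values are therefore treated as a score, and the read depth is unknown. They summed to between 398338 and 413595 per library, and the values multiplied by transcript length in kb summed to between 980841 and 984873, so levels of different genes are set side by side as values per length. The APC gene had values of 3 and 0 in NonS, and was at 0 in each silenced library, too low to check the silencing here. The paper reports silencing of APC mRNA and protein in HT-29 with this system, the protein by immunoblot. It also lists APC among the downregulated genes in its own test of this RNA-Seq. Of 8 markers of colonic epithelium 7 were above 0 in all libraries, with summed values of 3799 to 4762 in NonS and 4574 to 4800 in APC shRNA. CDX2, a defining one, was listed at 0 in both NonS libraries. All fibroblast and endothelial markers and 2 of 3 leukocyte markers, PTPRC among them, were at 0. CD68, a macrophage marker, was at 5 and 6 in NonS and 3 and 3 in APC shRNA. In bulk RNA, fewer cells of a kind and less RNA per cell cannot be told apart.

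After APC silencing most proteasome genes stayed close to their control level. Of the 44 members 19 had an APC shRNA mean within 10% of the NonS mean and 35 within 20%. Summed over the members, the values were 3357 and 3437 in NonS and 3237 and 3416 in APC shRNA, so the groups overlapped. A limma test on log2(value + 1), adjusted over 5376 genes with a mean of at least 10, called 2 members lower (PSMB2 and PSMD5) and 0 higher at an adjusted p under 0.05. Over all genes tested 3.7% were called lower and 4.33% higher. At an unadjusted p under 0.05 stood 3 members with a negative and 1 with a positive difference. All members passed the filter on low values. In simulated data with 200 of 5376 genes changed by 1.5-fold, the same test called 0.0% of those 200. The real data had more genes called, 233 higher and 199 lower, and PSMD5 was called at a ratio of means of 0.628. The simulated share therefore does not give the power of the test in the real data. Members not called are still not shown to be unchanged. The median log2 difference of the members was -0.06, and that of all genes tested was 0.03. Without APC shRNA I the members' median was 0.00704, and that of all genes tested was 0.0503. By sign, 27 members had negative and 17 positive differences, and 23 and 21 with GC content corrected.

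**Figure D1:**
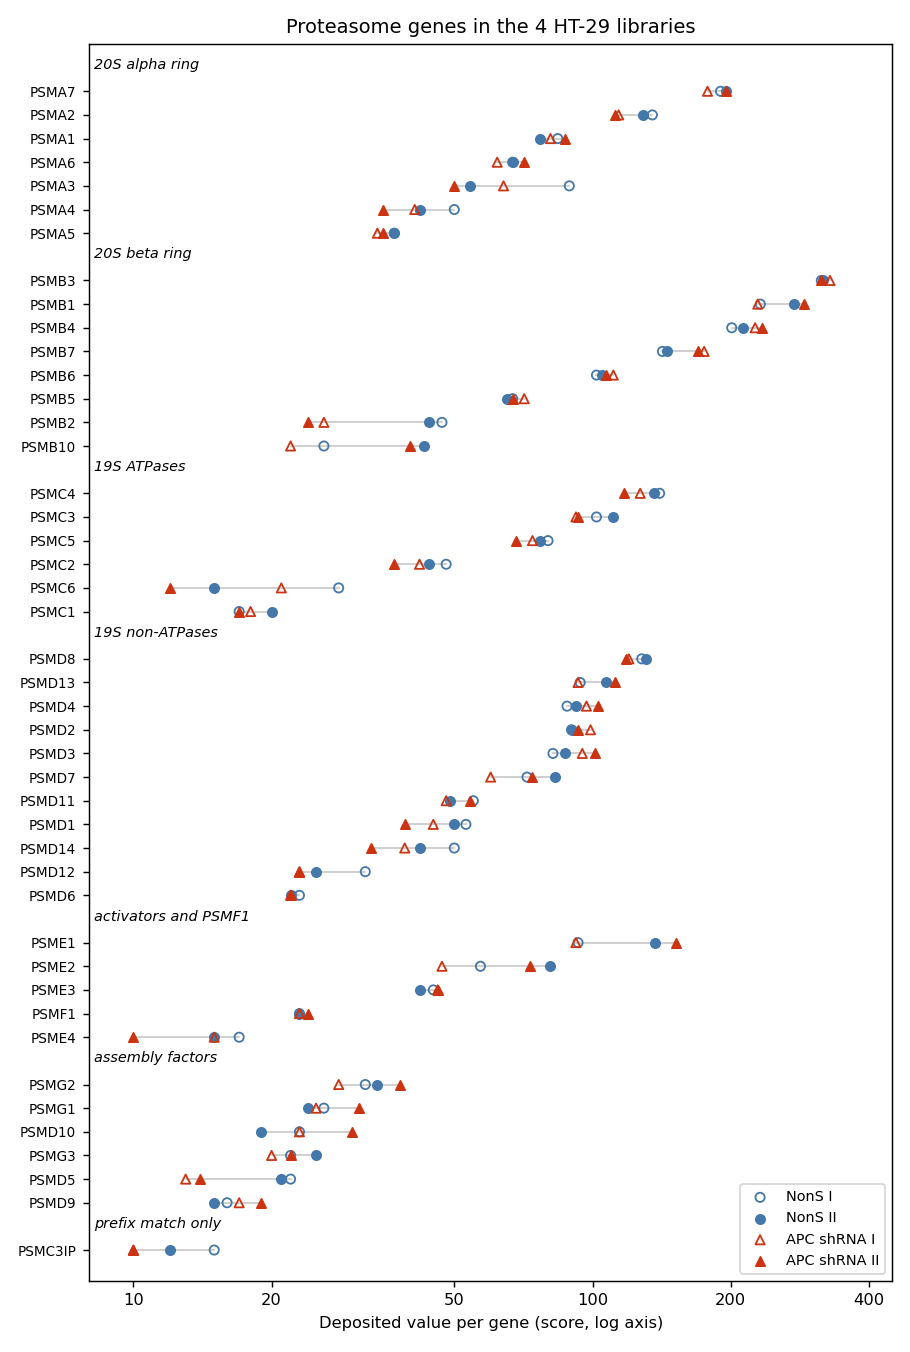
Deposited value of each of the 44 genes (log axis, score per gene) in the 4 libraries, by class. Circles are NonS and triangles APC shRNA, open for replicate I and filled for replicate II. PSMB2 and PSMD5 stand out by triangles that lie together to the left of the circles, and PSMB10, PSME1 and PSME2 by filled symbols that lie to the right of the open ones.

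PSMB2 is a beta subunit without a proteolytic site of its own. It fell the furthest of all members. Its values were 47 and 44 in NonS (45.5 ± 2.12, SD, n = 2) and 26 and 24 in APC shRNA (25.0 ± 1.41, SD, n = 2). Both silenced libraries lay far below both controls, and the ratio was 0.553 between the replicates I and 0.545 between the replicates II. On the log2(value + 1) scale the difference was -0.84 (SE 0.075, limma adjusted p = 0.0441). Without any 1 library it was between -0.90 and -0.78, with an adjusted p of 0.208 without NonS I, 0.181 without NonS II, 0.15 without APC shRNA I and 0.187 without APC shRNA II. These fits leave 1 group with a single library and called 0 of the 5376 genes, so the loss of a call in them says nothing about a single gene. The gene lies on the minus strand at chr1:35599544-35641844 (GRCh38, GENCODE v29), and no other annotated gene shares its exons.

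PSMD5, a chaperone that helps to assemble the base of the 19S cap, was the other member that fell. It was at 22 and 21 in NonS (21.5 ± 0.707, SD, n = 2) and at 13 and 14 in APC shRNA (13.5 ± 0.707, SD, n = 2). The groups were apart by several times the difference between duplicates, with a ratio of means of 0.628. The log2 difference was -0.63 (SE 0.067, limma adjusted p = 0.0452). Leaving out 1 library kept it between -0.68 and -0.59, with an adjusted p of 0.209 without NonS I, 0.181 without NonS II, 0.15 without APC shRNA I and 0.181 without APC shRNA II, in the same fits that called 0 genes. A correction for GC content gave -0.44 and an adjusted p of 0.0898. PSMD5 is on the minus strand at chr9:120815496-120842984 (GRCh38, GENCODE v29), again with exons of its own.

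The RefSeq window around the start of PSMB2 is shown because this member changed most. It covers chr1:35641477-35641776 on the minus strand (GRCh38.p14), 250 bases before to 50 after the start. No stretch is in capitals, as the window lacks the letters GAAANNGAA that are marked in the windows of PSMB10, PSME1 and PSME2. It also lacks CTTTGAT, the letters that TCF factors of the Wnt pathway are known to bind. That motif was in 0 of the 38 members' windows available and in 2.64% of all 27305 promoters. A site outside these windows would not be seen, and binding of TCF factors was not tested.
PSMB2: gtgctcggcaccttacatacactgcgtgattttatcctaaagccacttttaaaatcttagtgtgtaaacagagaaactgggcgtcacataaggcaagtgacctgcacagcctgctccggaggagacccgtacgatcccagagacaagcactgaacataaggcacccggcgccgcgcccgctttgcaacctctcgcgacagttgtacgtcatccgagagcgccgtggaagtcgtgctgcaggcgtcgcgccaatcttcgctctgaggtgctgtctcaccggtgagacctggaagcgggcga

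**Figure D2:**
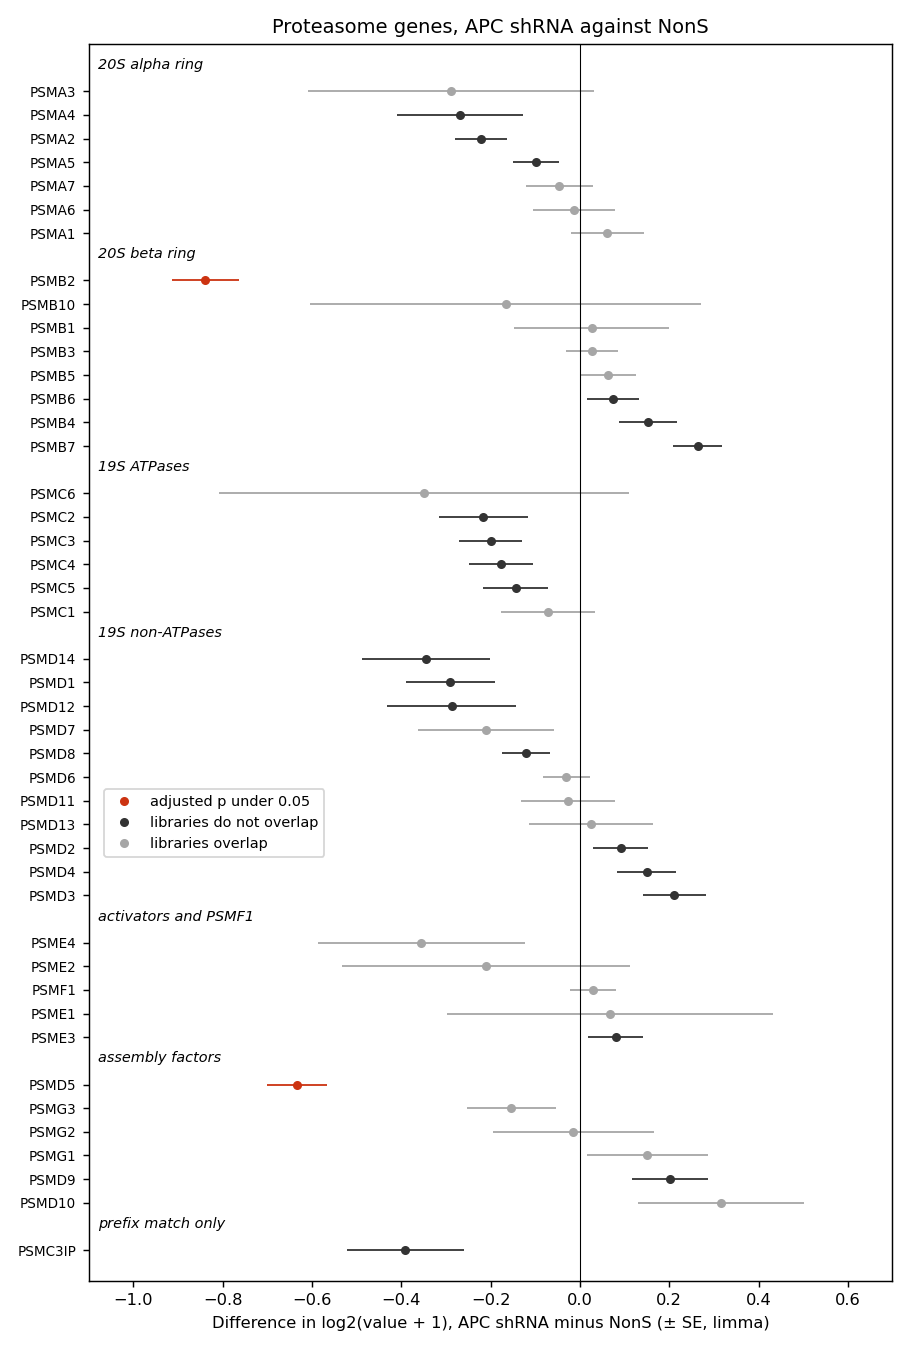
Difference of the group means of log2(value + 1), APC shRNA minus NonS, for each of the 44 genes by class, with the limma standard error as a bar. Red points passed an adjusted p of 0.05, dark points are genes whose libraries do not overlap between groups, and grey points are genes whose libraries do. PSMB2 and PSMD5 lie apart from all others, at -0.84 and -0.63.

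Separation without a test was common. The APC shRNA libraries lay both above the controls in 8 of 44 members, against 33.0% of all genes tested, and both below in 14 members, against 27.5%. With 2 libraries a group, an exact two-sided permutation test cannot give a p below 0.333, so these counts describe order only. The other 22 members overlapped between the groups. GC content moved with the differences: across 5364 genes, which are not independent replicates, the group difference had a Spearman correlation of 0.24 with it. The members had a median GC content of 48.0%, below the 51.9% of all genes tested. Corrected for GC content, their median log2 difference was -0.01 beside 0.01 over all genes, and 10 members changed sign. Of the 34 that kept it, 9 became smaller and 9 larger by over 1.5-fold. The part of GC content in any single difference was not tested. With GC content corrected and the replicate number as a block, 5 members were called higher and 8 lower, against backgrounds of 23.6% and 23.7%. The former were PSMA6, PSMB1, PSMB7, PSMD6 and PSMD10, and the latter PSMB2, PSMC3, PSMC4, PSMC3IP, PSMD5, PSMD8, PSME2 and PSMG3, with adjusted p of 0.00308 to 0.0486.

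The alpha ring, which forms the gate of the core, held 7 members, and 0 of them were called by limma (1 at an unadjusted p under 0.05). Their summed values were 652 and 601 in NonS and 574 and 585 in APC shRNA. PSMA7 had the highest level, 190 and 195 in NonS and 178 and 195 in APC shRNA. PSMA5 had the lowest, 37 and 37 against 34 and 35. These are small differences on the scale of whole numbers, and the sign for PSMA5 turned with GC correction. PSMA2 was at 135 and 129 in NonS against 114 and 112 in APC shRNA, a log2 difference of -0.22 (SE 0.058, adjusted p = 0.106) that was -0.00869 with GC content corrected (adjusted p = 0.963). Its libraries did not overlap, nor did those of PSMA4 at 50 and 42 against 41 and 35 (-0.27, adjusted p = 0.268, and -0.10 with GC content corrected). PSMA1, PSMA2 and PSMA6 each share exons on their own strand with another annotated protein-coding gene, so their reads are uncertain.

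PSMA3 had the most negative difference of the alpha ring, but its duplicates differed more than its groups. It was at 89 and 54 in NonS against 64 and 50 in APC shRNA, a log2 difference of -0.29 (SE 0.32, adjusted p = 0.554). Replicate II was the lower library in both groups. PSMA1, at 84 and 77 against 81 and 87, was the one alpha subunit with a positive difference, 0.06, and its groups overlapped. PSMA6 was at 67 and 67 against 62 and 71. By count the alpha ring had 6 negative differences and 1 positive, with a median of -0.10, but with GC content corrected 3 were negative and 4 positive.

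The beta ring holds the proteolytic chamber. Its 8 members were a mixed group: 3 lay above the controls in both libraries, 1 below, and 4 overlapped. Of all genes tested 33.0% lay above and 27.5% below. PSMB3, a subunit without a proteolytic site, had the highest level of all members, 315 and 317 in NonS against 329 and 315 in APC shRNA. PSMB1 was at 232 and 275 against 229 and 289, and PSMB4 at 201 and 213 against 226 and 234. Neither PSMB3 nor PSMB1 separated the groups. PSMB4 did, with a log2 difference of 0.15 (SE 0.06, adjusted p = 0.209). PSMB2 was the one beta subunit called. The within-library ratio of PSMB2 to PSMB1 was 0.203 and 0.16 in NonS and 0.114 and 0.083 in APC shRNA.

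The 3 standard proteolytic subunits are PSMB5 with chymotrypsin-like, PSMB6 with caspase-like and PSMB7 with trypsin-like activity. PSMB7 was at 142 and 145 in NonS against 175 and 170 in APC shRNA, with the groups well apart and a ratio of means of 1.20. Its log2 difference was 0.26 (SE 0.055, limma adjusted p = 0.0815), which did not pass; it passed when all genes with a total of at least 1 were tested (adjusted p = 0.0464) and under the block with GC correction (0.23, adjusted p = 0.0367). PSMB6 was at 102 and 105 against 111 and 107, a difference of 0.07 (adjusted p = 0.413) whose sign turned with GC correction. PSMB5 was at 67 and 65 against 71 and 67, and its groups touched (0.06, adjusted p = 0.510).

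**Figure D3:**
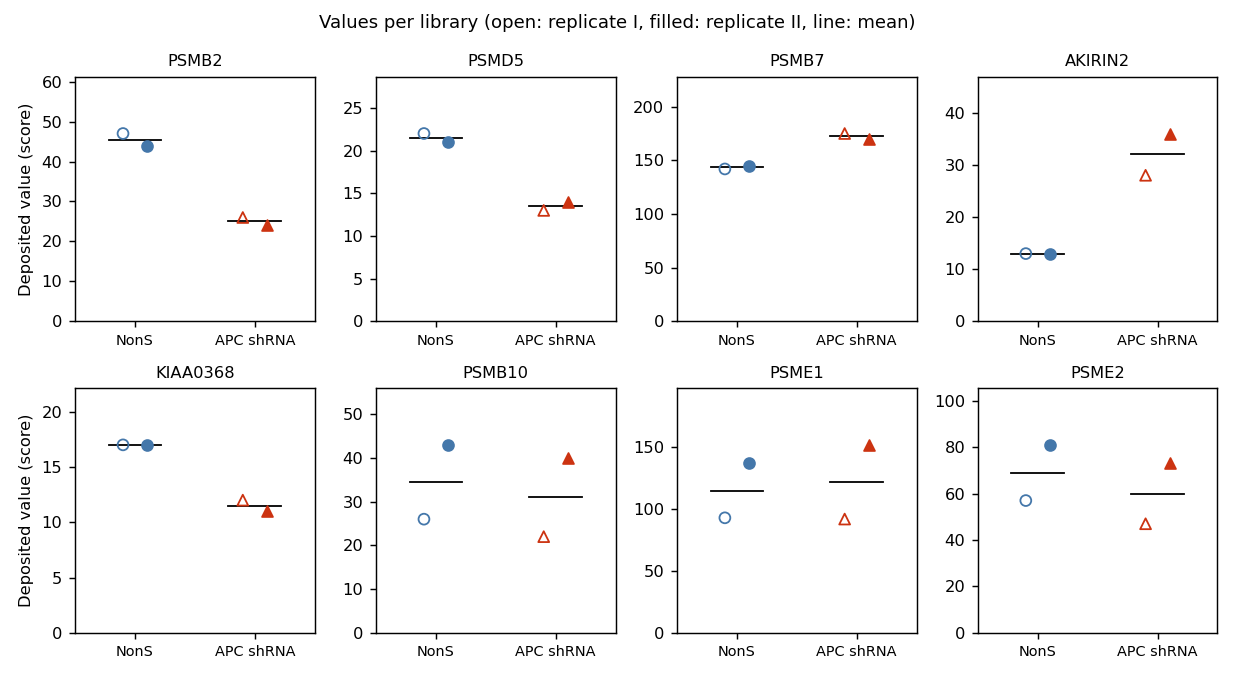
Deposited value (score, axes from 0) of 8 genes in each library. Open symbols are replicate I, filled symbols replicate II, and lines are group means of n = 2. PSMB2, PSMD5 and KIAA0368 are lower and PSMB7 and AKIRIN2 higher in both APC shRNA libraries, whereas PSMB10, PSME1 and PSME2 are higher in replicate II of both groups.

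The ATPases PSMC1 to PSMC6 form the ring that unfolds substrates at the mouth of the core. All 6 had negative differences, and 0 were called by limma, with 0 at an unadjusted p under 0.05. Their summed values were 415 and 403 in NonS and 374 and 344 in APC shRNA, a change of -12.2% in their mean. PSMC4, the highest, was at 140 and 136 against 127 and 117 (-0.18, SE 0.07, adjusted p = 0.195). PSMC3 was at 102 and 111 against 92 and 93 (-0.20, adjusted p = 0.160). In PSMC2, PSMC3, PSMC4 and PSMC5 both silenced libraries lay below both controls, as in 27.5% of all genes tested. The sign for PSMC2 turned with GC correction, and then 5 differences of the class were negative.

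PSMC2 was at 48 and 44 in NonS against 42 and 37 in APC shRNA, and PSMC5 at 80 and 77 against 74 and 68. PSMC1, the lowest, was at 17 and 20 against 18 and 17. Its reads are uncertain, as 13 annotated pseudogenes carry its name and it shares exons on the opposite strand with NRDE2. PSMC6 had the most negative difference of the class, -0.35, and also a wide error (SE 0.46, adjusted p = 0.614). Its values were 28 and 15 in NonS and 21 and 12 in APC shRNA. The ratio of replicate II to replicate I was 0.536 in NonS and 0.571 in APC shRNA, so the duplicates were further apart than the groups.

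The other cap subunits bind ubiquitin chains, remove them, or hold the cap together. Among these 11 genes 0 were called by limma (0 at an unadjusted p under 0.05). In both libraries 3 lay above and 4 below the controls, against 33.0% and 27.5% of all genes tested, and 4 overlapped. PSMD8, a lid subunit, had the highest level, 128 and 131 against 120 and 118. PSMD6, also of the lid, had the lowest, 23 and 22 against 22 and 22. The means of the silenced libraries differed from the controls by -8.11% and -2.22%. Under the block with GC correction PSMD8 was called lower (-0.20, adjusted p = 0.0413), and PSMD6 turned sign and was called higher (0.24, adjusted p = 0.0486). That setting called 23.6% of all genes tested higher and 23.7% lower. With the block alone PSMD6 was at -0.0307 (adjusted p = 0.607).

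PSMD14, the deubiquitinase of the lid that cuts the chain off the substrate, was at 50 and 42 in NonS against 39 and 33 in APC shRNA. The groups did not overlap, and the log2 difference was -0.34 (SE 0.14, adjusted p = 0.204). PSMD12 was at 32 and 25 against 23 and 23 (-0.29, adjusted p = 0.253). The signs for both turned with GC correction, and their GC contents of 32.0% and 37.9% were among the lowest of the members. PSMD1, a scaffold of the base, was at 53 and 50 against 45 and 39 (-0.29, adjusted p = 0.154) and kept its sign. PSMD3 had the most positive difference of the class, at 82 and 87 against 95 and 101 (0.21, SE 0.07, adjusted p = 0.146).

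PSMD4, the ubiquitin receptor, was at 88 and 92 in NonS against 97 and 103 in APC shRNA (0.15, adjusted p = 0.216). PSMD2, the other scaffold of the base, was at 90 and 90 against 99 and 93 (0.09). Both lay above the controls in each library, in contrast to PSMD1. The lid subunits PSMD7, PSMD11 and PSMD13 overlapped between groups, with 72 and 83 against 60 and 74 for PSMD7. PSMD11 was at 55 and 49 against 48 and 54, and PSMD13 at 94 and 107 against 93 and 112. Over the whole cap, ATPases included, 3 of 17 members lay above and 8 below the controls. The shares over all genes tested were 33.0% and 27.5%. Of those below, PSMC2, PSMD12 and PSMD14 turned sign with GC correction. Summed over the cap, the values were 1182 and 1181 in NonS and 1115 and 1116 in APC shRNA, so the groups did not overlap. Summed over the core they were 1784 and 1808 against 1763 and 1831, and overlapped. These sums were not tested.

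The activator genes PSME1 and PSME2 differed between duplicates and overlapped between groups. PSME1 and PSME2 are the alpha and beta subunits of PA28, an activator known to be induced by interferon gamma together with PSMB10, the proteasome subunit that takes the place of PSMB7 in the immunoproteasome. PSME1 was at 93 and 137 in NonS against 92 and 152 in APC shRNA. PSME2 was at 57 and 81 against 47 and 73, and PSMB10 at 26 and 43 against 22 and 40. In each of these genes replicate II exceeded replicate I in both groups, by 1.47-fold and 1.65-fold for PSME1, 1.42-fold and 1.55-fold for PSME2, and 1.65-fold and 1.82-fold for PSMB10. They were the 3 members over 1.3-fold in both groups. PSMB8, an immunoproteasome subunit left out of the members, followed the same order with 8 and 19 in NonS and 13 and 36 in APC shRNA, and PSMB9 was at 1 and 7 against 3 and 15.

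Between groups these genes overlapped. The log2 differences were 0.07 for PSME1 (SE 0.37, adjusted p = 0.910), -0.21 for PSME2 (SE 0.32, adjusted p = 0.662) and -0.17 for PSMB10 (SE 0.44, adjusted p = 0.802). The errors were among the widest of all members. With GC content corrected and the replicate number as a block, PSME2 was called lower (-0.26, adjusted p = 0.0304), as were 23.7% of all genes tested. Leaving out 1 library turned the sign of each: PSME1 ranged from -0.29 to 0.43, PSME2 from -0.52 to 0.10 and PSMB10 from -0.58 to 0.25. The within-library ratio of PSMB10 to PSMB7 was 0.183 and 0.297 in NonS and 0.126 and 0.235 in APC shRNA, so it too was ordered by replicate. The labels do not say what the replicates II shared, and no test was made of this order. PSMB10 shares 644 exonic bases on its strand with another protein-coding gene, and PSME2 shares 216 on the opposite strand with RNF31. The library kit was a stranded one, but the strand option of the counting is not stated, so reads of such neighbours may be mixed.

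The RefSeq promoter windows of these 3 genes are shown because their values moved together between duplicates. Capitals mark GAAANNGAA or its reverse complement, the letters that interferon regulatory factors are known to bind. They began at base -21 in PSMB10 (chr16:67936801-67937100, minus strand), at base 7 in PSME1 (chr14:24135944-24136243, plus strand, reverse complement) and at base -28 in PSME2 (chr14:24146561-24146860, minus strand), all in GRCh38.p14.
PSMB10: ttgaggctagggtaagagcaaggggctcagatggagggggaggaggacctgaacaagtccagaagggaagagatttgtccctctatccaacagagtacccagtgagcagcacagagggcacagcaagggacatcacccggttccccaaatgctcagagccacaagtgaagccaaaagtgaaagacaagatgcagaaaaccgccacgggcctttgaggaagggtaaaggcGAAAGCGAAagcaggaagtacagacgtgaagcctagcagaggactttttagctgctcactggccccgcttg
PSME1: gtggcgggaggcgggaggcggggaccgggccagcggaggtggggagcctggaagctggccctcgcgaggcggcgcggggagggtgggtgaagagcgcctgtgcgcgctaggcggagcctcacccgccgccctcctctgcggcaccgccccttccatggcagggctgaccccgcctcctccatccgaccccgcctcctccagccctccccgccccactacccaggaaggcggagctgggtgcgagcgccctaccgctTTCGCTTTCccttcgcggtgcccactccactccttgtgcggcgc
PSME2: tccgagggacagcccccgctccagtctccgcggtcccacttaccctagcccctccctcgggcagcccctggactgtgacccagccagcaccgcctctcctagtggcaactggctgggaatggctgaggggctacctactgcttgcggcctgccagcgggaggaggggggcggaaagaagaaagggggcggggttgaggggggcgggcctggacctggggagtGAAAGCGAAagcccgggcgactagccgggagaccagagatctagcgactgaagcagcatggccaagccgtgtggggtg

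Searched on both strands, GAAANNGAA was present in 6 of 38 members' windows (15.8%), namely those of PSMA4, PSMB4, PSMC2 and the 3 genes shown, and in 8.29% of all 27305 promoters. Of the other 3, PSMB4 was higher in replicate II of both groups, by 1.06-fold and 1.04-fold, and PSMA4 and PSMC2 were lower in it. TTCNNNGAA, known from STAT sites, was in 4 windows (10.5%) against 7.88% of all. TTCCNGGAA, a stricter form that lies within it, was in 0 windows against 1.22% of all. The antioxidant response letters TGACNNNGC, known from NFE2L1 and NFE2L2, were in 12 windows (31.6%) against 13.6%. The overlapping form TGANNNAGC was in 13 (34.2%) against 13.5%. CCAAT was in 18 (47.4%) against 35.7% and GGGCGG in 25 (65.8%) against 44.6%. The 8 motifs were chosen after the values were seen, and a match describes letters only.

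**Figure D4:**
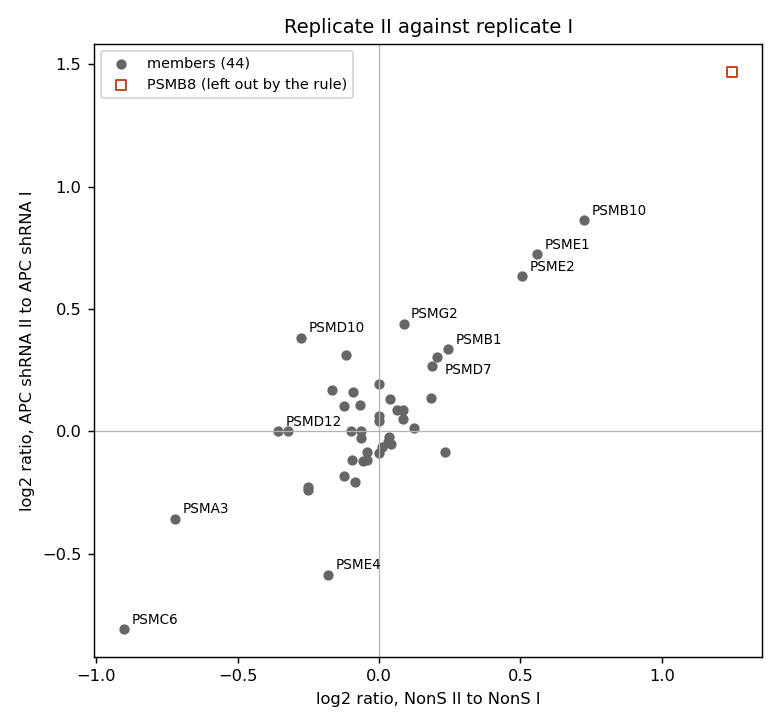
Log2 ratio of replicate II to replicate I in NonS (horizontal) and APC shRNA (vertical) for the 44 members (grey) and for PSMB8 (red square). PSMB10, PSME1, PSME2 and PSMB8 lie at the upper right, PSMC6 and PSMA3 at the lower left, and most members near the centre.

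Over all members, both replicates II lay above both replicates I in 8 of 44, against 11.8% of all genes tested, and below in 2 (PSMA3 and PSMC6), against 9.15%. Beside PSME1, PSME2 and PSMB10, the 8 were PSMA7, PSMB1, PSMD7, PSMD13 and PSMG2. PSMB1 had ratios of replicate II to I of 1.19 in NonS and 1.26 in APC shRNA. The duplicates differed more than the groups did in 11 of 44 members and in 1298 of the 5376 genes tested, a like share. Across genes the difference between NonS II and NonS I had a Spearman correlation of 0.486 with GC content, and in APC shRNA it was 0.0777. The part of GC content in the order by replicate was not tested, and PSMB10 had the highest GC content of the 3 inducible genes, 60.1%.

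The other regulators of the core were not called. PSME3, the nuclear PA28 gamma, was at 45 and 42 in NonS against 46 and 46 in APC shRNA (0.08, SE 0.06, adjusted p = 0.415). PSMF1, described as an inhibitor of the core in vitro, was at 23 and 23 against 23 and 24. Those values are equal within 1 unit in all libraries. PSME4, which encodes the activator PA200, was at 17 and 15 against 15 and 10 (-0.36, SE 0.23, adjusted p = 0.350), and its groups touched at 15. Of the 5 genes in this class 0 were called by limma, with 0 at an unadjusted p under 0.05.

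The assembly chaperones had low levels, with means of 16.8 to 33.0, and PSMD5 was the one called. PSMD9 and PSMD10 act on the same cap base as PSMD5 but had positive differences. PSMD9 was at 16 and 15 in NonS against 17 and 19 in APC shRNA (0.20, SE 0.08, adjusted p = 0.205). PSMD10 was at 23 and 19 against 23 and 30 (0.32, SE 0.19, adjusted p = 0.32), the most positive difference of all members, with groups that touched at 23. Neither passed the test. PSMD9 shares exons on its strand with WDR66 and another protein-coding gene, and 3 pseudogenes are named after PSMD10.

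The chaperones of the core did not separate the groups. PSMG1 was at 26 and 24 against 25 and 31, PSMG2 at 32 and 34 against 28 and 38, and PSMG3 at 22 and 25 against 20 and 22. In all 3 the libraries overlapped. The summed values of the assembly class were 141 and 138 in NonS and 126 and 154 in APC shRNA. PSMC3IP entered by its symbol alone, since it encodes HOP2, a factor of meiotic recombination. It was at 15 and 12 against 10 and 10 (-0.39, SE 0.13, adjusted p = 0.147), and without it the median of the other 43 members was -0.05.

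Other genes of the ubiquitin and proteasome pathway were read from a list of 35, of which 27 passed the filter. Of these 27 genes 1 was called higher and 1 lower by limma, against 4.33% and 3.7% of all genes tested. In both libraries 9 lay above and 6 below the controls, against 33.0% and 27.5%, and the median log2 difference was 0.01. AKIRIN2, an adaptor for the import of proteasomes into the nucleus, rose from 13 and 13 in NonS to 28 and 36 in APC shRNA (1.23, SE 0.148, adjusted p = 0.0483). KIAA0368, which encodes the proteasome adaptor ECM29, fell from 17 and 17 to 12 and 11 (-0.53, SE 0.068, adjusted p = 0.0490). Neither call held when all genes with a mean of at least 8 were tested (adjusted p = 0.0513 for each). With a total of at least 1 as the filter, AKIRIN2 was at an adjusted p of 0.0652. Without 1 library AKIRIN2 ranged from 1.05 to 1.4 with adjusted p of 0.148 to 0.243, and KIAA0368 from -0.58 to -0.47 with 0.148 to 0.221, in fits that called 0 of all genes.

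The other pathway genes named here were not called. CUL1, the scaffold of the ligase that ubiquitinates β-catenin, was at 45 and 40 in NonS against 36 and 26 in APC shRNA. Its log2 difference was -0.46 (SE 0.199, adjusted p = 0.212). With GC content corrected and the replicate number as a block it passed (adjusted p = 0.0478), where 23.7% of all genes were called lower. NFE2L2, a transcription factor of stress and proteasome genes, was at 19 and 10 against 9 and 5. Its log2 difference was -0.94 (SE 0.456, adjusted p = 0.242). With the replicate number as a block it passed (adjusted p = 0.0468), where 500 of 5376 genes were called lower. The shuttle receptor UBQLN2 was at 12 and 10 against 14 and 14. Under the block with GC correction it passed (adjusted p = 0.0171), where 23.6% of all genes were called higher. The cap deubiquitinase USP14 was at 29 and 24 against 21 and 21. NPLOC4, of the segregase that extracts ubiquitinated proteins, was at 21 and 23 against 24 and 27, and the ubiquitin-activating enzyme UBA1 at 104 and 101 against 116 and 108. The ligase receptor BTRC, at 3 and 3 against 4 and 4, was too low to be tested.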

How the data were processed

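RNA-Seq of polyadenylated RNA (50 bp single reads) was performed on 2 NonS and 2 APC shRNA libraries of HT-29 cells, grouped by their titles. The authors filtered the reads for quality, cut off polyA, aligned them with TopHat2 to human genome assembly 38 and counted per gene with htseq-count and GENCODE v29; the submitters' processing notes name hg19. They deposited 1 whole number per gene and library, used here as a score because its variance is below that of read counts. The library kit was a stranded one, but the strand option of the counting is not given in the sources used here. The authors' annotated table also holds fold changes and p-values, which were not used; it served to list genes. No per-sample column was left out.

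On log2(value + 1), the values of genes with a mean of at least 10 entered a linear model in limma 3.58.1 (R 4.3.3, lmFit, eBayes with trend, 1.14 prior degrees of freedom) and Benjamini-Hochberg adjustment over all genes tested. P-values measure the spread between these duplicates. The test was tried on simulated data. Members, lists and classes were chosen with earlier results of these data known. Genes named were members past the threshold, the extremes of each class, catalytic subunits, regulators and assembly factors, and from the pathway list the calls and the gene with the largest difference of each group. BTRC was named after its values were seen, and 1 pathway gene under this rule is not reported here. Alternatives covered scaling, filters, pseudocount, a replicate block, GC content and length (loess, span 0.5), moderation, and leaving out each library. Promoter windows are from RefSeq (GRCh38.p14), which held 38 of the 44 members.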

Additional observations from a re-analysis of the deposited data

How the results depend on the processing

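Other scalings, means of at least 8, values of at least 10 in every library, pseudocounts, moderation and length correction kept the count of members called lower at 2 and higher at 0. With all genes of a total of at least 1 tested, 1 member (PSMB7) was called higher, beside 952 of 12799 genes over all. With GC content corrected 1 was called lower, and the median log2 difference of the members was -0.00646. The replicate block alone kept 0 higher and 2 lower and a median of -0.0595, with 523 genes higher and 500 lower over all genes. The replicate block with GC content corrected gave 5 members higher, 8 lower and a median of -0.00646. The replicate numbers are not stated to mark a shared batch; the differences between duplicates correlated at 0.724 between the groups over 5376 genes. Over all genes the calls, 233 higher and 199 lower as reported, ranged outside of left-out libraries from 139 and 134 with values of at least 10 in every library to 1268 and 1272 with block and GC correction. When 1 library was left out, the members' median ranged from -0.111 without APC shRNA II to 0.00704 without APC shRNA I. The median of all genes tested was 0.00149 and 0.0503 in these fits. Signs turned with GC content corrected, with or without the block, for PSME1 -0.00548, PSMC2 0.0463, PSMD12 0.00132, PSMD14 0.0947, PSMD6 0.24, PSMA3 0.0298, PSMA5 0.208, PSMA6 0.27, PSMB3 -0.0483, PSMB6 -0.00744. They turned with upper-quartile scaling for PSMF1 -0.00604, PSMD13 -0.0117, PSMB1 -0.0105, PSMB3 -0.0102, with equal totals for PSMD13 -0.00448, PSMB1 -0.00333, PSMB3 -0.00299, and with length correction for PSMA6 0.0056. Leaving out 1 library turned the sign of PSMA1 (-0.000899 to 0.123), PSMA3 (-0.644 to 0.066), PSMA6 (-0.11 to 0.0825), PSMA7 (-0.112 to 0.0186), PSMB1 (-0.141 to 0.194), PSMB10 (-0.584 to 0.25), PSMB3 (-0.00455 to 0.058), PSMC1 (-0.183 to 0.039), PSMC6 (-0.778 to 0.0799), PSMD11 (-0.111 to 0.0558), PSMD13 (-0.108 to 0.158), PSME1 (-0.292 to 0.426), PSME2 (-0.523 to 0.102), PSMG2 (-0.229 to 0.199), given with their ranges. In all, 867 of the single-gene values kept direction and side of the threshold, 15 newly passed it, 20 no longer passed and 50 turned sign. The causes of these changes were not tested. Values are rounded to whole numbers and their depth is unknown, so low values are the least precise.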
